A study of Rattus norvegicus with 23 samples.

Results

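The miR-183, miR-96 and miR-182 cluster was followed in small RNA of rat sperm taken from the cauda, the storage end of the epididymis. Its members were the rows of the miRNA table named miR-183, miR-96 or miR-182, either arm, and the rule matched 2 of 425 rows, miR-182 and miR-96-5p. The mature forms of miR-183 and miR-96-3p were not analysed here. Male Long-Evans rats formed 3 groups by what they inhaled: filtered air in 7 rats, ozone at 0.4 ppm (chamber mean 0.401 ppm) in 8 rats, and ozone at 0.8 ppm (chamber mean 0.798 ppm) in a further 8 rats. Each session took 4 h, and there were 3 sessions in week 1 and 2 in week 2. The question was the effect of repeated ozone, an oxidant gas of polluted air, on sperm motility and noncoding RNA. The series text names 8 rats a group, and 7 air libraries were analysed here. The labels give neither an age nor a purification step for the sperm.

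The cluster encodes 3 miRNAs that are cut from a shared primary transcript. A miRNA guides Argonaute proteins to mRNAs that pair with its seed, the bases from position 2 to position 8, and lowers their output. The cluster is best known from sensory organs, where photoreceptors and hair cells carry it at high levels, and mutations in the seed of miR-96 cause hearing loss in mice and people. In human tumour cells miR-182 and miR-96 are known to repress FOXO1, a transcription factor of stress resistance.

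The mature sequences are shown because the members differ from each other in the seed. In the GRCr8 RefSeq annotation the genes Mir182, Mir96 and Mir183 lie next to each other on the minus strand of chromosome 4, with 0 other annotated genes starting between Mir182 and Mir96. That build is not the one named for the reads, rn6, so it was used here for sequences and neighbours only. Seeds are in capitals.
miR-182: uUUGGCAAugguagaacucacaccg
miR-96-5p: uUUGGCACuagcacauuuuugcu
miR-183-5p: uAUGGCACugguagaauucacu
Counted from the 5′ end, miR-182 and miR-96-5p share their leading 7 bases, and their seeds differ by 1 base, A8C from miR-182 to miR-96-5p. From miR-96-5p to miR-183-5p the seed differs by U2A. Over the 23 positions that miR-182 and miR-96-5p both have, 12 bases are identical, so reads of the pair can be told apart. Of 396 rows with a RefSeq mature sequence, 0 others held the full seed of miR-182 or of miR-96-5p. The seed relatives listed as miR-1271 had no row in the table and were not analysed here.

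The RefSeq precursor records show where the measured miRNAs lie in them, with the mature miRNA in capitals.
Mir182 hairpin: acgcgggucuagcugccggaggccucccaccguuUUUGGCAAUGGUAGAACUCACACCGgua
Mir96 hairpin: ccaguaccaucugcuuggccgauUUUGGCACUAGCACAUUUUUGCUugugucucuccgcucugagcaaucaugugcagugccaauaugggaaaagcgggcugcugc
The 106-base Mir96 hairpin holds miR-96-5p at positions 24 to 46. The 62-base Mir182 record holds miR-182 at positions 35 to 59 and ends 3 bases after it, so it does not contain the opposite arm.

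The deposited values are reads divided by a scaling factor of each library, called normalised values below, and whole reads could be recovered from them. The median library had 628271 recovered miRNA reads, the shallowest 213839 and the deepest 1286612. Depth below means this count of recovered miRNA reads. The total number of sequenced reads per library was not analysed here. The germ-cell list (miR-34b, miR-34c and miR-449, 5 of 6 listed miRNAs with a row) held 23.6% to 51.3% of the table, and 0 of its 5 rows was at 0 in any library. The epithelial miR-200 list (8 of 8 with a row) held 0.688% to 3.23%, the leukocyte list 1.75% to 6.43%, the muscle and stroma list 1.54% to 11.3% and the erythroid list 0.0107% to 0.205%. The leukocyte share was mostly miR-146b-5p, with a median normalised value of 13485, and miR-146a-5p came next with 744. The muscle and stroma share was mostly miR-143-3p, with a median of 13568, and miR-145-5p came next with 40.7. In bulk RNA, fewer cells of a type and less RNA per cell cannot be told apart.

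miR-182 was abundant in these sperm samples, and miR-96-5p of the same cluster was barely detected. miR-182 averaged 2542 ± 1345 in normalised value (SD, n = 23) and stood 32nd of 425 rows by its mean. It was read in 23 of 23 libraries, with 1351 to 5121 recovered reads each, and ranked between 24th and 47th within single libraries. Its share of the miRNA table ran from 0.161% to 1.11%. In the shallowest library, replicate 5 at 0.8 ppm, the 95% Wilson interval of the 1.11% share was 1.07% to 1.16%, which covers counting error only.

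miR-96-5p averaged 1.36 ± 2.21 in normalised value (SD, n = 23) and stood 349th of 425 rows. Over all libraries it had 30 recovered reads among 15737599, or 1.91 RPM (reads scaled to a common total of miRNA reads) with an exact Poisson 95% interval of 1.29 to 2.72. It had at least 1 read in 14 of 23 libraries and never more than 6, so its level in a single rat was at the detection limit. Among the 9 libraries without a read, a count of 0 allows a share of up to 0.00140% in the shallowest and up to 0.000267% in the deepest. Both members passed the detection filter, a value above 0 in at least 8 libraries.

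The mature lengths are 25 and 23 bases, so levels are compared here as read values without a length correction. miR-182 had 56211 recovered reads against 30 of miR-96-5p, a ratio of 1874 with an exact binomial 95% interval of 1312 to 2777 for counting error. The 14 libraries with a miR-96-5p read had 1 to 6 of them, so ratios within a library were imprecise. The lowest was 422 in replicate 7 at 0.4 ppm, from 6 reads, with an exact interval of 194 to 1151. The highest was 5121 in replicate 4 at 0.4 ppm, from 1 read, with an interval of 919 to 202308. In the other 9 libraries miR-182 was at least 474-fold to at least 1110-fold higher, taking 3 reads per library as the floor for miR-96-5p. Other clusters were spread over levels too, although no test of the difference between clusters was made. In the miR-106b, miR-93 and miR-25 cluster, miR-25-3p averaged 17310.4 ± 3733 and miR-106b-5p 10.9 ± 4.97 (SD, n = 23), a ratio of 1595. In the miR-200b, miR-200a and miR-429 cluster the highest mean was 15.1 times the lowest, and in the miR-200c and miR-141 pair 7.50 times.

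**Figure D1:**
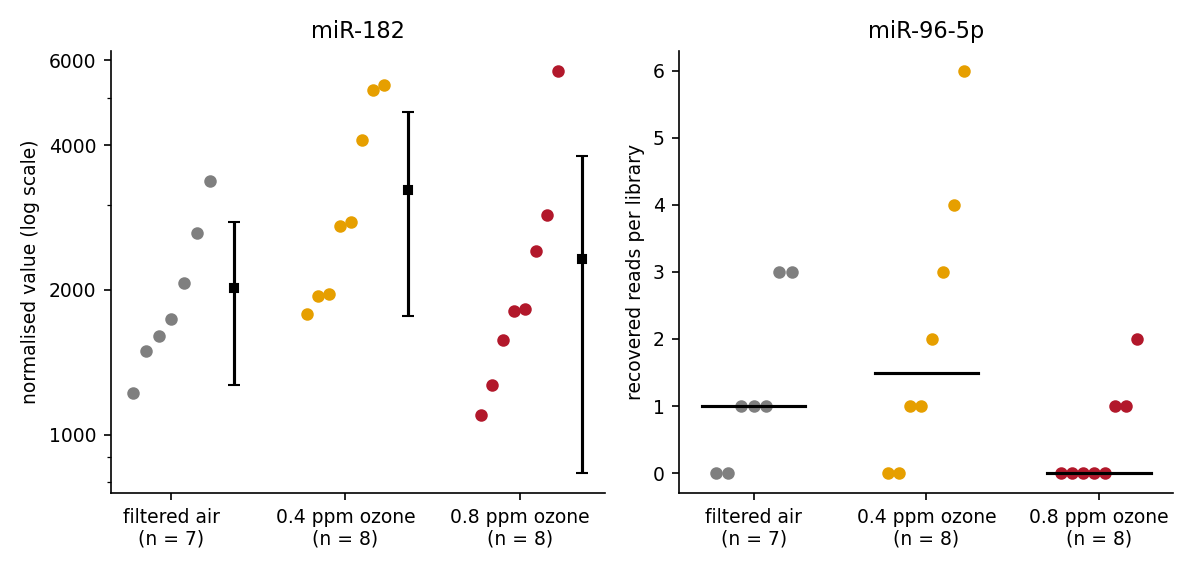
Left, miR-182 normalised value in each rat on a log axis, with squares and bars for the group mean and SD (n = 7 in air and 8 at each ozone dose). Right, recovered miR-96-5p reads per library with lines at the group median. The groups overlap in both panels, 3 libraries at 0.4 ppm lie above the highest air library for miR-182, and 5 of 8 libraries at 0.8 ppm had 0 reads of miR-96-5p.

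Against air, miR-182 was higher on average at 0.4 ppm, and the difference did not pass the adjusted threshold. miR-182 stood at 1785, 2737 and 5338 (lowest, median and highest normalised value) at 0.4 ppm, against 1219, 1740.5 and 3370.4 in air. The groups overlapped, with 3 of 8 libraries at 0.4 ppm above the highest air library and 0 below the lowest. Means and SDs were 3225 ± 1461 for the 8 rats at 0.4 ppm and 2017 ± 749 for the 7 in air. The limma fit gave a log2 fold change of 0.63 ± 0.29 (SE), or 1.55-fold with a 95% interval of 1.02 to 2.34, with an unadjusted p of 0.0404 and an adjusted p of 0.784. A two-sided exact permutation of the log2 values gave an unadjusted p of 0.0597. Of 407 tested miRNAs, 0% passed at 0.4 ppm by limma, and 22 had an unadjusted p under 0.05, among which miR-182 ranked 20th. edgeR and DESeq2 on the recovered reads also called 0 miRNAs, with 26 and 31 at an unadjusted p under 0.05.

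The count of recovered miRNA reads moved with this difference. Libraries at 0.4 ppm held 582918 ± 334632 recovered miRNA reads, against 727314 ± 273964 for the air libraries (SD). With log2 read depth as a covariate, the log2 fold change of miR-182 at 0.4 ppm was 0.35 (limma adjusted p = 0.985). The germ-cell list held 35.6% ± 6.50 of the table at 0.4 ppm against 42.6% ± 5.46 in air, and the epithelial list 1.78% ± 0.716 against 1.14% ± 0.325. The part that cell makeup had in the miR-182 difference was not tested. The library names end in a number from S1 to S12, and each number occurs at most 2 times. In the column order of the table no number repeats among the first 11 libraries or among the last 12, and what these stretches stand for is not stated. They held 2 and 5 air libraries, 4 and 4 at 0.4 ppm, and 5 and 3 at 0.8 ppm. With the stretch as a covariate, the log2 fold change of miR-182 at 0.4 ppm against air was 0.68 (limma adjusted p = 0.758). It was 0.40 within the first stretch and 0.80 within the last (limma adjusted p = 1 and 0.606). As a share of the table, miR-182 and miR-96-5p together held 0.560% ± 0.254 at 0.4 ppm and 0.320% ± 0.111 in air (SD), and nearly all of it was miR-182.

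At 0.8 ppm miR-182 overlapped with air and reached both lower and higher values. Its lowest, median and highest normalised values were 1101, 1815 and 5703 at 0.8 ppm, against 1219, 1740.5 and 3370.4 in air. Only replicate 5 at 0.8 ppm lay above the highest air library, and 1 lay below the lowest. The mean was 2316 ± 1483 at 0.8 ppm (SD, n = 8), and limma put the log2 fold change against air at 0.08 ± 0.29 (SE), within a 95% interval of -0.52 to 0.68 (adjusted p = 0.993). That interval covers folds from 0.700 to 1.61, so changes within those bounds could be missed with these rats. Without replicate 5 at 0.8 ppm the log2 fold change was -0.13, and without replicate 1 of air it was -0.02. Within the 11-library stretch it was -0.20 and within the 12-library stretch 0.44, and 0.17 with the stretch as a covariate. By limma 0% of 407 miRNAs passed at 0.8 ppm, with 9 at an unadjusted p under 0.05, and edgeR and DESeq2 called 0 as well, with 15 and 18.

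Between the ozone doses, miR-182 was lower on average at 0.8 ppm than at 0.4 ppm. The groups overlapped: 3 of 8 rats at 0.8 ppm had less miR-182 than any rat at 0.4 ppm, and 1 had more than any. By limma the log2 fold change was -0.54 ± 0.28 (SE), its 95% interval ran from -1.12 to 0.03, and the adjusted p was 0.729. By its means the order of the groups was 0.4 ppm, 0.8 ppm and air, and no neighbours in that order passed the adjusted threshold. With read depth as a covariate the log2 fold change between the doses was -0.29, and within the stretches it was -0.60 and -0.36. By limma 0% of 407 miRNAs passed between the doses, with 15 at an unadjusted p under 0.05, and edgeR and DESeq2 called 0, with 18 and 25.

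miR-96-5p reads were fewest at 0.8 ppm, where counts were too low for a firm comparison. Recovered reads numbered 9 in air, 17 at 0.4 ppm and 4 at 0.8 ppm, from 5 of 7, 6 of 8 and 3 of 8 libraries. Per miRNA read, the pooled rate at 0.4 ppm was 2.06 times that in air, with an exact 95% interval of 0.869 to 5.25. The rate at 0.8 ppm was 0.378 times that in air, with an interval of 0.0851 to 1.36. Against 0.4 ppm, the rate at 0.8 ppm was 0.183 times, with an interval of 0.0449 to 0.562. These intervals cover counting error in pooled reads and not the spread between rats.

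Tested over rats, the log2 fold change of miR-96-5p was 0.42 ± 0.43 (SE) at 0.4 ppm and -0.60 ± 0.43 at 0.8 ppm, each against air (limma adjusted p = 0.914 and 0.993). Between 0.8 ppm and 0.4 ppm it was -1.02 ± 0.41, with a 95% interval of -1.86 to -0.18 (limma adjusted p = 0.729, unadjusted p = 0.0190). Within the stretches of 11 and 12 libraries it was -1.39 and -0.67. The two-sided exact permutation p of the difference between the doses was 0.0404 before adjustment and 0.913 after it. The groups overlapped: the 8 libraries at 0.8 ppm held 0 to 2 reads each, and the 8 at 0.4 ppm held 0 to 6. Of the 17 reads at 0.4 ppm, 6 came from replicate 7 and 4 from replicate 5, whose normalised value was 10.1 because 1 read counted for 2.53 in that shallow library. A pseudocount of 1 was added before taking logs, so fold changes of a row this low come out too small.

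**Figure D2:**
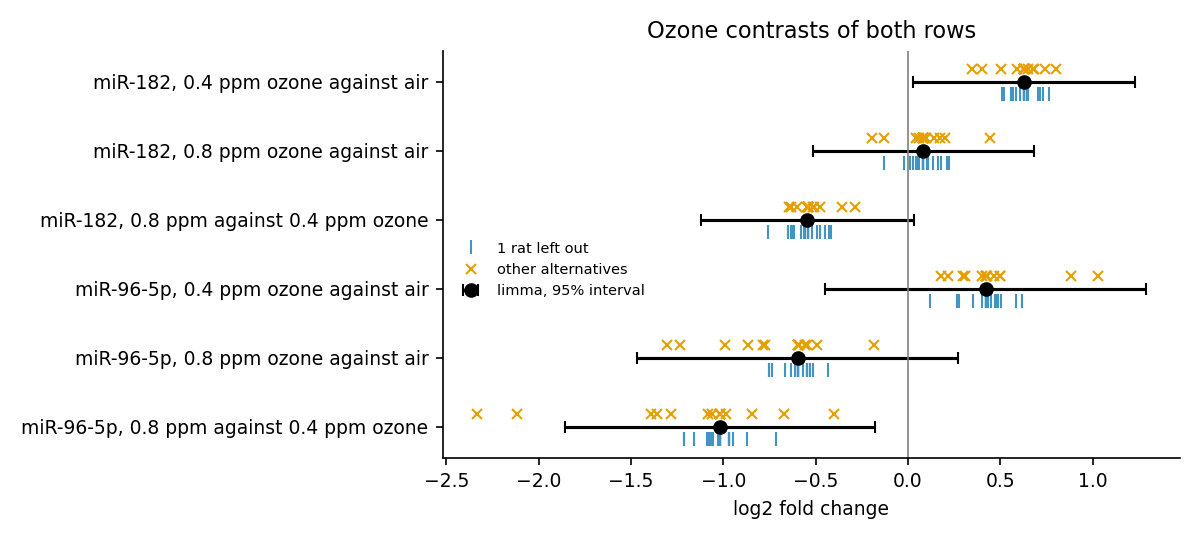
Log2 fold changes of miR-182 and miR-96-5p in the 3 contrasts on the horizontal axis. Black points and bars are limma estimates with 95% intervals, blue ticks the fits with 1 rat left out, and orange crosses the other alternatives. The miR-182 estimate at 0.4 ppm against air is 0.63, with all alternatives above 0, and estimates of miR-182 at 0.8 ppm against air lie on both sides of 0.

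miR-182 varied more between rats than most abundant miRNAs did. Its coefficient of variation over the 23 libraries was 52.9%, the 6th highest of the 51 rows with a mean of at least 1000, whose median was 31.3%. Counting error alone would give about 2.16% in the median library. Within groups the coefficient was 37.2% in air, 45.3% at 0.4 ppm and 64.0% at 0.8 ppm. The highest values were 5703 in replicate 5 at 0.8 ppm, and 5338, 5198 and 4107 in replicates 5, 4 and 2 at 0.4 ppm.

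Those differences between rats went with the number of recovered miRNA reads, and total sequencing depth was not analysed here. Over 23 libraries, log2 miR-182 fell with log2 recovered miRNA reads (Pearson r = -0.771, permutation p = 4e-05, adjusted p = 0.00018 over 6 library measures; Spearman rho = -0.794, permutation p = 2e-05, adjusted p = 6e-05). The relation kept its sign without the 2 libraries farthest from the median depth (r = -0.751) and within groups, with r of -0.840 in air, -0.488 at 0.4 ppm and -0.936 at 0.8 ppm. The p of 2e-05 is close to the smallest that 100000 two-sided permutations can give. Within the stretches of 11 and 12 libraries r was -0.864 and -0.689. On the RPM scale r was -0.759. Of 407 tested miRNAs, 3, miR-182 included, had an r with depth at or below that of miR-182, and the median r was 0.10.

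miR-182 also fell with the share of the table held by germ-cell miRNAs. Pearson r was -0.750 (permutation p = 6e-05, adjusted p = 0.00018) and Spearman rho was -0.810 (permutation p = 2e-05, adjusted p = 6e-05). Without the 2 libraries farthest from the median share, r was -0.743, and within groups it was -0.741 in air, -0.532 at 0.4 ppm and -0.788 at 0.8 ppm. Within the stretches r was -0.915 and -0.857. The relation with the epithelial share was positive (r = 0.571, permutation p = 0.00469, adjusted p = 0.00938; rho = 0.572, permutation p = 0.00503, adjusted p = 0.0101). It was r = 0.535 without the 2 farthest libraries. Within groups it was 0.438 in air, -0.01 at 0.4 ppm and 0.922 at 0.8 ppm, so it did not hold at 0.4 ppm, and within the stretches it was 0.276 and 0.846. These shares, depth and miR-182 come from the same libraries, and the shares are parts of a common total.

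Shares of the lists for other cells had smaller pooled correlations with miR-182. For leukocytes r was 0.382 (permutation p = 0.0698, adjusted p = 0.105; rho = 0.234, permutation p = 0.284, adjusted p = 0.284), and 0.249 without the 2 farthest libraries. Within the stretches the leukocyte r was 0.803 and -0.239, so the relation did not hold in both. For erythroid miRNAs r was 0.322 (permutation p = 0.133, adjusted p = 0.160; rho = 0.264, permutation p = 0.225, adjusted p = 0.270), and 0.160 without the 2 farthest libraries. For muscle and stroma r was 0.263 (permutation p = 0.240, adjusted p = 0.240), 0.328 without the 2 farthest libraries, and rho was 0.506 (permutation p = 0.0143, adjusted p = 0.0215). Within the stretches r was 0.131 and 0.412 for erythroid miRNAs, and 0.421 and 0.482 for muscle and stroma.

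**Figure D3:**
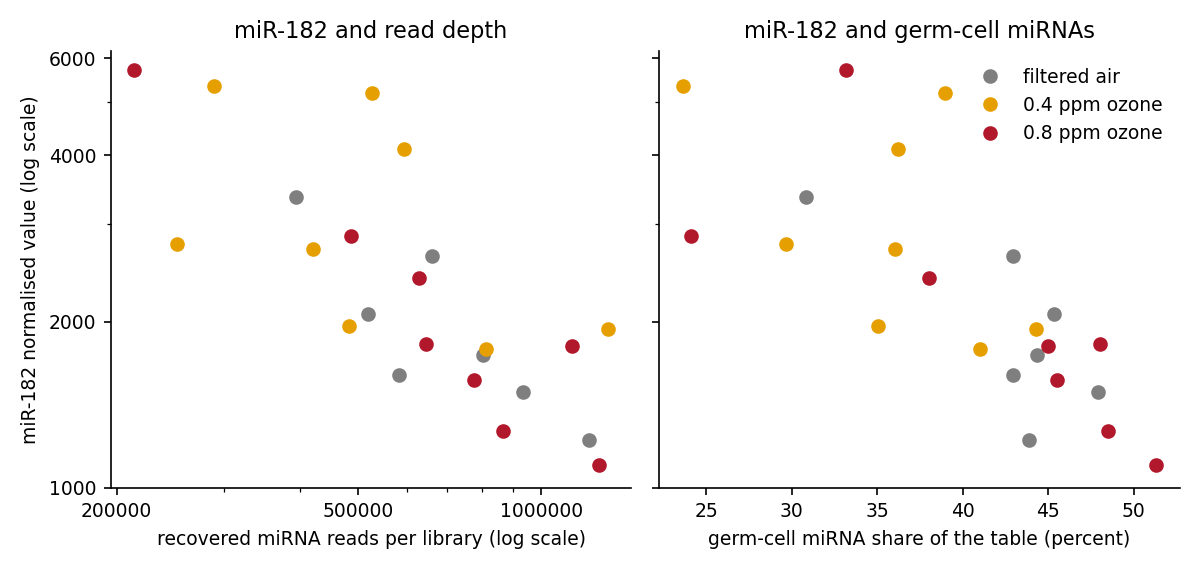
miR-182 normalised value (log axis) in 23 libraries against recovered miRNA reads (left, log axis) and against the percent of the miRNA table held by germ-cell miRNAs (right), coloured by group. In both panels the values fall from left to right, with Pearson r of -0.771 and -0.750 on the log2 scale of miR-182.

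No relation between the 2 members was detected. Over 23 libraries log2 miR-182 and log2 miR-96-5p had a Pearson r of 0.221 (permutation p = 0.313) and a Spearman rho of 0.0917 (permutation p = 0.677), the only pair tested. Without the 2 libraries farthest from the median of miR-182, r was 0.0990. Within groups it was 0.542 in air, 0.301 at 0.4 ppm and -0.641 at 0.8 ppm, and within the stretches 0.290 and 0.230. With 0 to 6 reads of miR-96-5p in each library, a relation could be missed at this depth.

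The rows most like miR-182 over the 23 libraries were let-7c-5p (Pearson r = 0.909), let-7b-5p (r = 0.890) and miR-672-5p (r = 0.881), given as a description. let-7 miRNAs are widespread in differentiated cells, and let-7b and let-7c are near-identical, so their rows may share reads. Within groups the r of let-7c-5p with miR-182 was 0.901 in air, 0.909 at 0.4 ppm and 0.924 at 0.8 ppm. let-7c-5p averaged 13618 ± 5331 at 0.4 ppm against 10298 ± 3920 in the air group (SD), with a log2 fold change of 0.40 ± 0.32 (SE, limma adjusted p = 0.863). At the other end were miR-140-3p (r = -0.810), miR-34c-5p, the leading germ-cell miRNA (r = -0.796), and miR-17-5p (r = -0.790). Over all 406 other tested rows the median r was -0.06.

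A further row maps to the same locus. miR-3553, picked out after its values were seen, is annotated on the plus strand of chromosome 4, and its 106-base hairpin lies with all 106 bases inside the Mir183 hairpin on the opposite strand. Capitals mark the 22 of its 23 bases that are the reverse complement of all of miR-183-5p.
miR-3553: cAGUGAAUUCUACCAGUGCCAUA
The sources used here do not say whether reads were assigned by strand, and without strand, reads of this row and of miR-183-5p cannot be told apart. miR-3553 stood 95th of 425 rows. Its lowest, median and highest normalised values were 158, 259.9 and 517 at 0.4 ppm and 101, 172 and 371 at 0.8 ppm, against 117, 142 and 334 in air. The groups overlapped, with 1 library at each ozone dose above the highest air library and 3 at 0.8 ppm below the lowest.

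The mean of miR-3553 was 279 ± 111 at 0.4 ppm (SD, n = 8) and 175 ± 76.2 in air (n = 7), a log2 fold change of 0.67 ± 0.29 (SE, limma adjusted p = 0.784). For miR-182 the same fit gave 0.63 ± 0.29. At 0.8 ppm it averaged 200.2 ± 102, with a log2 fold change against air of 0.12 ± 0.29 (limma adjusted p = 0.993). Its Pearson r with miR-182 over 23 libraries was 0.760 and its Spearman rho 0.750, the 11th highest r of 406 rows. Within groups r was 0.537 in air, 0.590 at 0.4 ppm and 0.848 at 0.8 ppm.

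**Figure D4:**
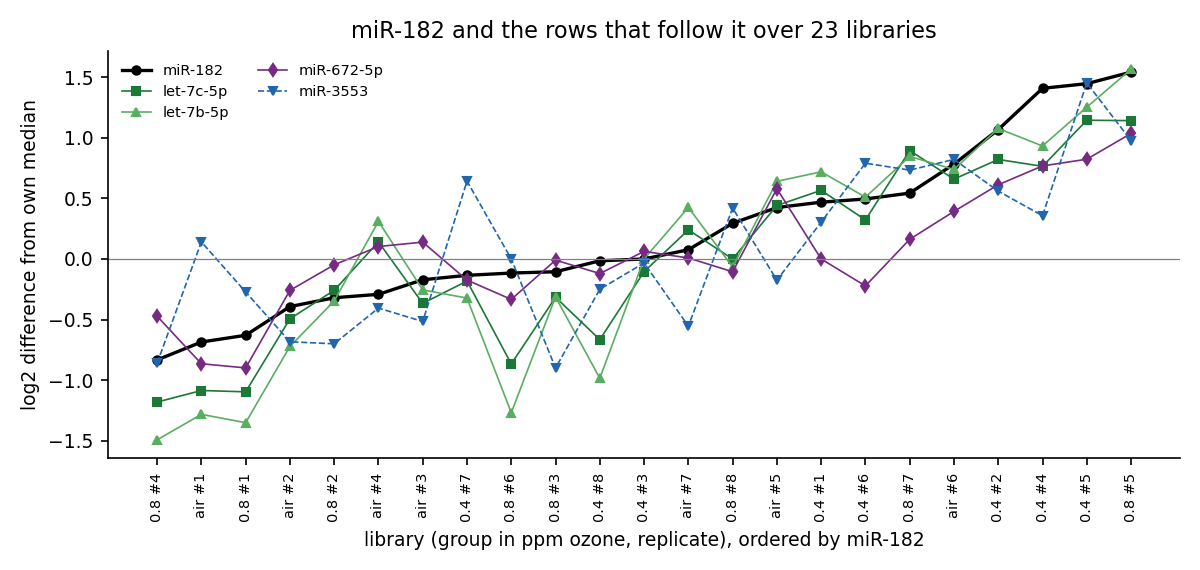
Log2 difference of each row from its own median in 23 libraries, ordered from the lowest to the highest miR-182 and labelled by group in ppm ozone and replicate. let-7c-5p, let-7b-5p and miR-672-5p run with miR-182, and miR-3553 does so less closely, with Pearson r of 0.909, 0.890, 0.881 and 0.760.

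A list of miRNAs for retina, lens and neuroendocrine cells, which holds no hair-cell marker, had members on both sides of air. It had 9 of 9 rows in the table and held 2.14% to 5.94% of it, led by miR-375-3p, an islet and neuroendocrine miRNA, and miR-7a-5p. Of its 9 rows, 0 passed in any contrast. At 0.4 ppm 3 were above air, beside 196 of all 407 tested rows. Their log2 fold changes were -0.45 to 0.21, with a median of -0.06 beside -0.02 over all tested rows. At 0.8 ppm 2 were above air, beside 208 of 407, with a range of -0.31 to 0.45 and a median of -0.10 beside 0.01. The list was not tested against miR-182. miR-375-3p averaged 14680 ± 8207 at 0.4 ppm (SD, n = 8), 14826 ± 4341 at 0.8 ppm (n = 8) and 15052 ± 4527 in air (n = 7). miR-124-3p, the neuronal miRNA, reached at most 7.05.

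The epithelial miR-200 list was higher on average at 0.4 ppm, as miR-182 was, without a call. At 0.4 ppm 8 of 8 were above air, with a median log2 fold change of 0.53, and at 0.8 ppm 7 of 8, with a median of 0.17. Over all tested rows, 196 of 407 were above air at 0.4 ppm and 208 of 407 at 0.8 ppm. The rows of the list come from the miR-200b, miR-200a and miR-429 cluster and the miR-200c and miR-141 pair, so they are not independent. None of the 8 passed in either contrast by limma. miR-141-3p, its most abundant row, averaged 4870 ± 1880 at 0.4 ppm against 3160 ± 1384 for air (SD), and miR-200a-3p 3698 ± 1058 against 2933 ± 1000.2. The germ-cell list had 0 of 5 above air at 0.4 ppm, with a median of -0.40, and 3 of 5 at 0.8 ppm, with a median of 0.01. miR-34c-5p averaged 125137 ± 25057 at 0.4 ppm against 167560 ± 20184 in air. The leukocyte, muscle and stroma, and erythroid lists had medians of -0.02, 0.40 and 0.05 at 0.4 ppm and of 0.02, 0.39 and 0.01 at 0.8 ppm, with 0 of their 14 rows called at either dose. In the same order, 3 of 7, 4 of 4 and 2 of 3 rows were above air at 0.4 ppm. At 0.8 ppm 4 of 7, 4 of 4 and 2 of 3 were. Over all 6 lists, the rows at 0 in some libraries were miR-141-5p in 9 of 23, miR-223-3p in 4, miR-124-3p in 2, miR-142-3p in 1 and miR-211-5p in 1.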

How the data were processed

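Small RNA libraries of sperm were made with the CleanTag kit and read single-end on a NextSeq instrument, per the labels' protocols. Bowtie 1.0.0, Partek and rn6 are named in the submitters' processing notes, and the sources used here do not say how reads were assigned to miRNAs. RNA integrity numbers were 2 to 4, per the labels' protocols, with none for a single rat. The deposited miRNA table holds a scaled read signal, reads divided by a library factor, per the file headers and the values: dividing by the smallest value of a library turned 100% of its 249 to 298 low values into whole reads, to within 0.1. The libraries held 213839 to 1286612 recovered miRNA reads. No pair of libraries was identical. The other deposited tables were not used.

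Rows above 0 in at least 8 libraries (407 of 425) were fitted with limma 3.58.1 in R 4.3.3 on log2(value + 1), with trend and robust moderation, over 3 groups in 1 model; adjusted p is Benjamini-Hochberg over 407 rows, two-sided, at 0.05. The labels say each library is a separate rat. Correlations have two-sided permutation p-values from 100000 orders. Alternatives tried were a pseudocount of 0.5 or 5, no filter or a mean of at least 10, RPM or quantile scaling, edgeR 4.0.16, DESeq2 1.42.0, exact permutation, the compared groups alone, depth as a covariate, and leaving out rats. Named rows are the members, the 3 rows most correlated with miR-182, and the 2 most abundant of a list. The methods were tested on simulated data, with fold changes larger than those of miR-182 and in rows more abundant than miR-96-5p. That test does not cover smaller changes or changes in rows that low. The members, lists and rules were chosen with earlier results of these data known. The germ-cell, epithelial, leukocyte, muscle and stroma, erythroid, and retina, lens and neuroendocrine lists come from textbook knowledge. The labels name no sequencing run or extraction date. The 2 stretches of columns in which no library number repeats were tried as a covariate and alone, an alternative chosen after seeing the data.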

Additional observations from a re-analysis of the deposited data

Results flagged for a closer look

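The miR-182 value of 5703 in replicate 5 at 0.8 ppm stood apart from the other 7 libraries of its group, the next highest of which was 2856. Its share of the table, 1.11%, stood apart in the same way, with 0.438% next. This library had the fewest recovered miRNA reads, 213839, and its epithelial share was 2.95%. The miR-96-5p value of 10.1 in replicate 5 at 0.4 ppm, which is 4 reads, stood apart from the next highest value of 4.23, which is 6 reads in a deeper library. Each was picked out because its gap to the nearest library, divided by the range of the group, exceeded Dixon's 95% critical value. In all, 9 sets of values were examined and 3 gave such a library, where chance gives about 1 in 20, and 2 of the 3 are the same library and miRNA.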

How the results depend on the processing

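No alternative called miR-182, miR-96-5p or any other miRNA in any contrast, so the call counts stayed at 0 in every fit. With 1 rat left out, the log2 fold change of miR-182 ran from 0.51 to 0.76 at 0.4 ppm against air, from -0.13 to 0.22 at 0.8 ppm against air, and from -0.76 to -0.42 between the doses. Those of miR-96-5p ran from 0.12 to 0.62, from -0.76 to -0.43 and from -1.21 to -0.72. The sign of miR-182 at 0.8 ppm against air turned to -0.02 without replicate 1 of air and to -0.13 without replicate 5 at 0.8 ppm. It was also -0.13 without the 3 libraries under 300000 reads, an alternative chosen after seeing the data. The smallest adjusted p of miR-182 at 0.4 ppm was 0.514 with 1 rat left out and 0.606 over the other alternatives. Within the first 11 libraries in column order, miR-182 at 0.8 ppm against air was -0.20, a split also chosen after seeing the data. The summed share differed by 0.240 percentage points at 0.4 ppm against air (0.181 to 0.280 with 1 rat left out), by 0.0730 at 0.8 ppm against air (-0.0298 to 0.106) and by -0.167 between the doses (-0.270 to -0.108). At 0.8 ppm against air it turned to -0.000127 when miR-182, the more abundant member, was left out of the sum, and to -0.0298 without replicate 5 at 0.8 ppm. The correlation between the members turned to -0.641 within the 0.8 ppm group (permutation p = 0.0899, n = 8). For miR-96-5p between the doses, the log2 fold change was -0.40 with a pseudocount of 5, -1.36 with 0.5, -2.12 in edgeR and -2.34 in DESeq2; its low counts limit precision, and it had no value under the filter of a mean of at least 10. No paired analysis was possible because each rat has a number of its own and no label ties rats of different groups.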
